A study of Mus musculus with 18 samples.

Results

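Gene expression was compared between 2 arrays: S33 embryonic stem cells (ESCs) given doxycycline (dox+) and the same cells without it (dox-), 1 array each and 2 of the 18 arrays of the series. The series studied Apc mutations in several mouse cell types, and one of its stated subjects was what induction of mutant beta-catenin does to gene expression in ESCs and in embryonic fibroblasts (MEFs). The labels call the S33 ESC samples pluripotent stem cells and give the ESC medium as serum with LIF. They do not give the dose or duration of dox, the promoter or allele that dox controls, the number of clones, or whether feeder cells were present, and they do not spell out S33, a name that matches one of the serines of beta-catenin whose phosphorylation marks the protein for destruction. With 1 array per arm, no difference between the S33 arrays has a replicate check, and no test was made. Values are given as log2 of the intensity, quantile normalized over the 18 arrays, and a difference is dox+ minus dox- on that scale, so that 1 unit is 2-fold. A gene was followed if it exceeded the array's median on at least 1 of the 2 S33 ESC arrays, which 11254 of 19938 genes did.

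Other arrays serve here only as background. They are 3 lines of reprogrammed colon tumour cells (RTCs, made from tumour cells by iPSC methods), 2 derivatives of RTC lines, 1 array each of ESCs with 0, 1 or 2 copies of the Min allele (Apc +/+, Apc Min/+, Apc Min/Min), 2 arrays of MEFs from an RTC derivative not given 4-hydroxytamoxifen (untreated MEFs), and S33 MEFs with and without dox, 1 array each. The Min allele truncates the Apc protein. What sets the RTC derivatives apart from their parent lines is not in the labels. The growth notes also name an Apc Min/Min ESC in trophoblast stem cell medium, and it is not stated whether that is the Min/Min array.

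Beta-catenin (Ctnnb1) joins cadherins to the cytoskeleton at cell contacts and, when Wnt ligands halt its destruction by Apc, Axin and the kinases Gsk3 and casein kinase 1, enters the nucleus and binds TCF/LEF factors on their target genes. In mouse ESCs the pathway is known for relieving repression by Tcf7l1 and so favouring the naive state, while in epiblast it is known for inducing primitive streak genes. Axin2, Nkd1, Notum and Lef1 are induced by the pathway in many tissues, and several of them feed back to dampen it.

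Both S33 arrays had the profile of pluripotent cells. The mean over 9 pluripotency markers was 12.45 without and 12.71 with dox, while the other 8 pluripotent arrays ran from 12.30 to 12.63 and untreated MEFs averaged 7.07. Pou5f1, the central pluripotency factor, stood at 12.53 and 12.60, below its range of 12.91 to 13.16 on the other pluripotent arrays. Nanog stood at 13.17 and 13.38 and Sox2 at 12.84 and 13.04. The Y-linked gene Uty stood at 8.23 and 7.92, under the 9.24 to 10.57 of the other pluripotent arrays, so for this gene both S33 arrays stood apart from the other lines. The deposited median intensities of the S33 ESC arrays were 249.7 and 247.6, in a series that spanned 142 to 317, and the number of arrays limits the precision.

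With dox, 111 of 11254 genes (0.986%) were 2-fold or more higher and 245 (2.18%) were 2-fold or more lower. At 4-fold the counts were 9 (0.08%) and 26 (0.231%). In value, 5809 genes were above their dox- level and 5433 (48.3%) below it. Counts in the gene lists are to be set beside these shares. Many of the genes 2-fold or more lower were of fibroblast type. Genes whose mean on the untreated MEF arrays was 4-fold or more above that on the RTC derivative arrays, called feeder-type here, numbered 482, and of these 124 (25.7%) were 2-fold or more lower with dox and 1 (0.207%) was higher. Among the remaining 10772 genes, 110 (1.02%) were higher and 121 (1.12%) lower. That balance depended on where the lines were drawn: with the split at 2-fold in place of 4-fold, 99 of the remaining genes were higher and 75 lower, and with the split at 8-fold 111 and 196. Counting from 1.5-fold, 509 were higher and 365 lower. The median difference was -0.53 over feeder-type genes and 0.02 over the others. These values are of followed genes, and a gene could pass the filter through the dox- array alone. With no filter, 131 of 891 feeder-type genes were 2-fold or more lower with dox.

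**Figure D1:**
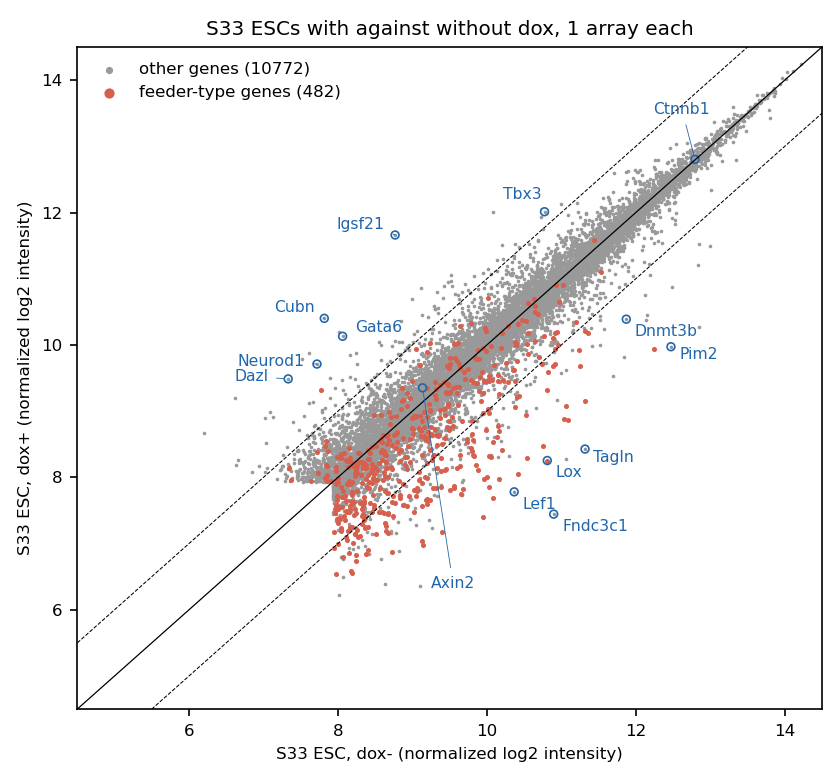
Normalized log2 intensity of each gene on the S33 ESC array with dox (y axis) against the array without dox (x axis), with equality as a solid line and 2-fold as dashed lines. Red points, the 482 feeder-type genes, lie mostly under the line of equality, while Igsf21, Cubn, Gata6 and Dazl stand above the upper dashed line and Fndc3c1, Lef1, Tagln and Pim2 under the lower one; Ctnnb1 and Axin2 lie near the line of equality.

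The dox difference changed in steps with how far a gene favoured fibroblasts. The median was 0.04 over the 6101 genes at or under equal level in MEFs and RTC derivatives, and -0.06 over the 1221 genes with a gap of 1 to 2 log2 units. It was -0.40 over the 379 genes with a gap of 2 to 3 and -0.97 over the 91 genes with a gap of 3 to 4. The share of genes 2-fold or more lower with dox ran from 0.836% and 3.77% to 19.8% and 46.2% over the same 4 ranges. These ranges hold followed genes only, and a gene could be followed through the dox- array alone. Beyond a gap of 4 only 12 genes were left, too few for a steady value (median -1.17, 7 genes lower). At the edge of the split, Thsd7a just outside (gap 2.00) differed by -0.49, and Tnc just inside (gap 2.00) by -2.31. The genes at the edge of the split included some with and without a dox difference.

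**Figure D2:**
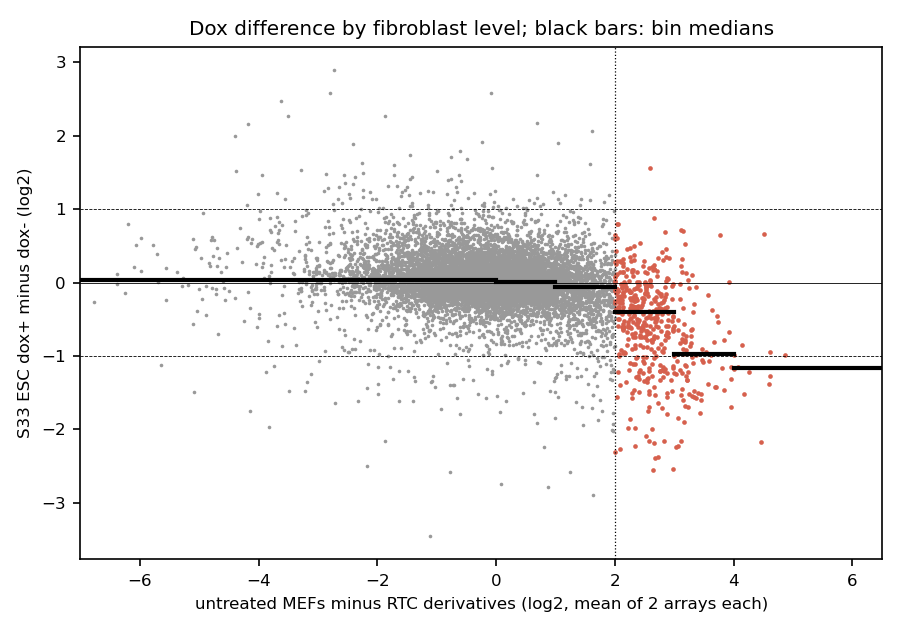
Dox difference in S33 ESCs (y axis, log2) against the mean of 2 untreated MEF arrays minus the mean of 2 RTC derivative arrays (x axis, log2), 1 point per gene, with the median of each range as a black bar, dashed lines at 2-fold and a dotted line at the 4-fold split. The medians stay between 0.04 and -0.06 up to a gap of 2 and step to -0.40, -0.97 and -1.17 beyond it.

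Among the fibroblast markers, the mean over 15 genes was 9.16 without and 8.20 with dox, against 12.44 in untreated MEFs and 9.09 to 10.92 on the other 8 pluripotent arrays. The dox+ array thus had a lower fibroblast level than any other pluripotent array, while the dox- array lay at the lower end of their range. All 15 markers were lower in value with dox and 7 were 2-fold or more lower. Lox, the enzyme that cross-links collagen, stood at 10.81 without and 8.25 with dox, a difference of -2.56. The small proteoglycan gene Dcn went from 9.56 to 7.86, the matrix gene Postn from 9.43 to 8.11 and the collagen gene Col1a1 from 10.01 to 9.03. Neither Lum (6.15 and 5.78) nor Fap (6.14 and 5.95) exceeded the array median on either array. In bulk RNA, fewer cells of a type and less RNA per cell cannot be told apart.

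A longer list of 26 fibroblast and matrix genes, 20 of them feeder-type, had 15 members 2-fold or more lower and 0 higher (median -1.21, against 0.01 over all genes). Of the 26, 12 are also among the fibroblast markers, and of the other 14, 8 were lower and 0 higher (median -1.27). The largest differences among feeder-type genes after Lox were those of the homeobox gene Meis2 (9.95 to 7.40, -2.54), the smooth muscle actin Actg2 (10.08 to 7.69, -2.40), the N-cadherin gene Cdh2 (10.42 to 8.05, -2.38), the matrix glycoprotein Tnc (12.24 to 9.93, -2.31) and the smooth muscle gene Cnn1 (10.75 to 8.48, -2.27). Xaf1, an interferon-induced gene, was the only feeder-type gene 2-fold or more higher (7.77 to 9.33, 1.56). After it came the complement inhibitor Serping1 (0.88), Oas2 (0.80), Dnm1 (0.80), the PDGF receptor Pdgfra (0.71) and Nfib (0.70), each under 2-fold. The dox+ level was under the range of the other 8 pluripotent arrays in 222 of all 482 feeder-type genes (46.1%) and in 7.32% of the genes outside that group. It was so in 103 of the 124 lower feeder-type genes. The 124 were chosen for being lower with dox, so nothing is read from that count.

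The contractile and YAP-responsive list had 10 of 19 members 2-fold or more lower, 0 higher and a median of -1.51. The 12 members that are not feeder-type had a median of -0.47, with 4 lower. The smooth muscle actin Acta2 went from 12.85 to 10.27 and the actin-binding Tagln from 11.32 to 8.43, and their levels in MEFs exceeded those in RTC derivatives by 1.25 and 1.63, less than the feeder-type split asks. On the other 8 pluripotent arrays Acta2 lay at 12.25 to 13.23 and Tagln at 10.35 to 11.76, so it was the dox+ array that stood apart for both. Ankrd1, a YAP target, went from 8.82 to 6.89, and the tropomyosin Tpm1 from 12.14 to 10.45. The YAP targets Ccn1 (12.16 and 12.22) and Ccn2 (12.11 and 12.35) did not differ by as much as 2-fold. How far the lower fibroblast level on the dox+ array enters the contractile values was not tested.

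Wnt target genes as a group were not higher with dox in S33 ESCs. Of 20 followed Wnt target and feedback genes, 0 were 2-fold or more higher and 3 were lower, with a median of -0.22. Axin2, the scaffold that feeds back on the pathway, stood at 9.14 without and 9.35 with dox, a difference of 0.22. Its pooled SD among like arrays elsewhere in the series (RTCs, RTC derivatives and MEFs, 5 degrees of freedom) was 0.18. The RTC and RTC derivative arrays are of different lines, so the pooled SDs given here include differences between lines. They also include the MEF arrays, whatever a gene's level there. For comparison, Axin2 stood at 8.41 in Apc +/+ and 8.61 in Apc Min/+ ESCs, at 10.41 to 10.57 in RTCs and at 10.90 in Apc Min/Min ESCs, so both S33 values lay between these groups. Of the other feedback inhibitors, Nkd1 went from 9.08 to 8.75, Nkd2 from 8.49 to 8.25, Notum from 8.07 to 7.87 and Znrf3 from 10.26 to 10.07. The caudal homeobox gene Cdx1 had the largest positive difference of the list, 8.90 to 9.52 (0.61), with a pooled SD of 0.17. The secreted inhibitor Dkk1 followed, at 7.88 and 8.46. Cdx2 (7.56 and 7.55) and the stem cell receptor gene Lgr5 (6.72 and 6.49) were under the array median on both arrays.

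Lef1, the TCF/LEF factor that is itself a Wnt target, stood out in the opposite direction. Its level was 10.37 without and 7.78 with dox, a difference of -2.59 (pooled SD 0.18). On the other 8 pluripotent arrays it ran from 8.74 to 9.95, so the dox- value lay above and the dox+ value below all of them. Cd44, a hyaluronan receptor and feeder-type gene, went from 9.68 to 7.82 (-1.86), and the growth regulator Myc from 10.90 to 9.90. With genes kept only above the 75th percentile, the median of the Wnt target list was -0.81. Over the settings tried that median ran from -0.81 to -0.19. Sp5, a zinc finger factor induced by Wnt, went from 8.24 to 7.83 (-0.41), and both values lay inside the 7.21 to 9.20 of the other pluripotent arrays.

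The promoters of Sp5 and Lef1 are shown because the hexamer CTTTGA, the core of the sequence that TCF/LEF factors bind, is present in one and not in the other. Each runs from 250 bases before to 50 bases after the annotated start, 5′ to 3′ on the strand of the gene, from RefSeq (GRCm38.p6), with CTTTGA in capitals. Sp5 is at chr2:70474673-70474972, plus strand, with the hexamer starting at -204 and -104 from the start site, and Lef1 at chr3:131110047-131110346, plus strand.
Sp5: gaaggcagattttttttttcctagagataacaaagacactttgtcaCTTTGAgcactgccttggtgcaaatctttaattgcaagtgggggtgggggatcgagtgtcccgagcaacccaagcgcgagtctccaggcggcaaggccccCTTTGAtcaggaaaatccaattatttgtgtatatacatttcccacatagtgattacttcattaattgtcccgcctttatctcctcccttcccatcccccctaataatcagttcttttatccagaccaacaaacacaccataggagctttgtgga
Lef1: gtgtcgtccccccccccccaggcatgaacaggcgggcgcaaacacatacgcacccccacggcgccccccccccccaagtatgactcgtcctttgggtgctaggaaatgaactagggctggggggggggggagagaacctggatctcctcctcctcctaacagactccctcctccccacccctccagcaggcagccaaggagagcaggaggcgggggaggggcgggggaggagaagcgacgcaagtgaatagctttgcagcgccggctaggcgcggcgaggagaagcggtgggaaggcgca
Searched on both strands, CTTTGA was in 16.2% of all 27025 promoters, in 11.3% of the 8710 promoters matched to the genes outside the feeder-type group, in 13.1% of those of genes higher with dox (11 of 84) and in 14.1% of those of genes lower with dox (12 of 85). In the Wnt target list, 2 of the 11 promoters in the table held it. The motifs were chosen after the expression values were seen. Such a match is a description of letters in this window.

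Upstream parts of the pathway differed little. Ctnnb1 itself stood at 12.80 on both arrays, a difference of 0.01, and the sources used here do not say whether its probe set also reads the dox-controlled transcript. Apc stood at 10.57 and 10.31, Axin1 at 10.29 and 10.34, Gsk3b at 10.87 and 10.92, the ubiquitin ligase subunit Btrc at 11.33 and 11.47, and the repressor Tcf7l1 at 11.66 and 11.25. Of 42 followed genes of beta-catenin turnover and Wnt signal transduction, 0 were 2-fold or more higher and 3 lower, all of them at the cell surface or on the secretory route: the Wnt-secretion factor Wls (9.64 to 8.17) and the receptor Fzd2 (9.81 to 8.34), both feeder-type, and the receptor Ror1 (8.92 to 7.86), with a MEF gap of 1.93. The receptor Fzd5 had the largest positive difference, 9.87 to 10.85, under 2-fold. Of 13 ligands and secreted inhibitors, 0 were higher and 2 lower, namely Wnt8a, a ligand of the early streak (8.71 to 7.19), and the inhibitor Sfrp2 (10.91 to 9.72, feeder-type). On the other pluripotent arrays Wnt8a ran from 6.94 to 7.53, so its dox- value stood apart.

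In S33 MEFs given dox, 10 of the same 20 genes were 2-fold or more higher and 1 lower, with a median of 0.96, beside 2.5% of all genes higher and 3.71% lower. Axin2 went from 8.60 to 11.27 in S33 MEFs (2.67) and Lef1 from 7.89 to 10.36 (2.47). In ESCs the same genes differed by 0.22 and -2.59. The difference between the cell types was not tested, since each arm has 1 array. In Apc Min/Min over Apc +/+ ESCs 8 of the 20 were higher and 1 lower (background 4.6% and 5.65%), and in RTCs over their derivatives 8 were higher and 0 lower (background 1.91% and 1.55%). These 3 backgrounds are over genes that passed each contrast's own filter, feeder-type genes included. Among the genes followed in S33 ESCs and outside the feeder-type group, S33 MEFs had 1.32% higher and 2.65% lower. Min/Min ESCs had 2.97% and 5.3% there, and RTCs 1.08% and 1.58%.

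**Figure D3:**
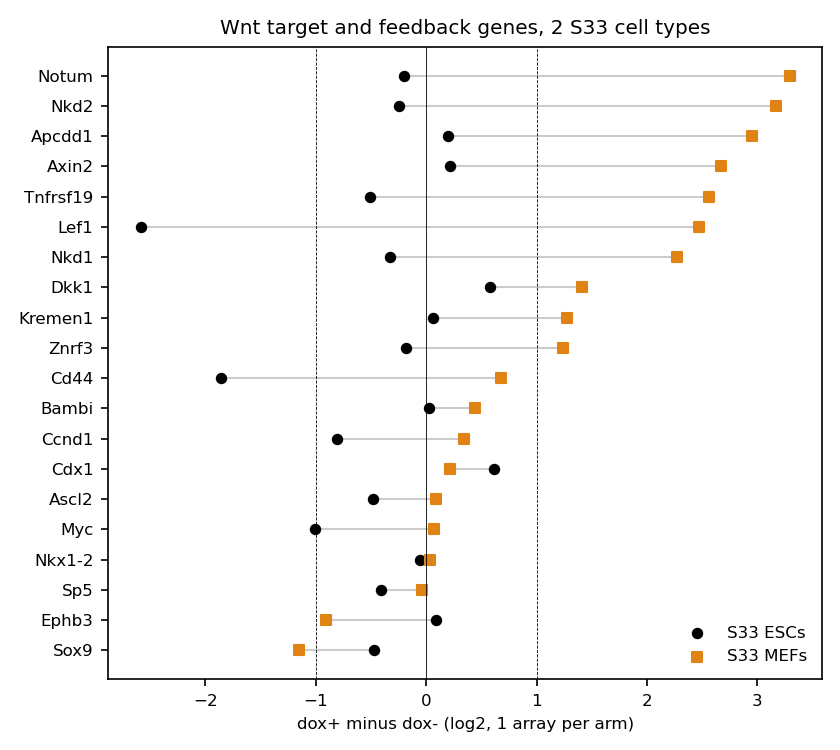
Difference between dox+ and dox- (x axis, log2) for the 20 followed Wnt target and feedback genes in S33 ESCs (black circles) and S33 MEFs (orange squares), 1 array per arm, ordered by the MEF value, with dashed lines at 2-fold. In MEFs 10 genes lie past the upper dashed line, while in ESCs none does and Lef1 (-2.59) and Cd44 (-1.86) lie furthest to the left.

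Of 29 naive and core pluripotency genes, 1 was 2-fold or more higher with dox and 1 lower. In value, 24 of the 29 were above their dox- level (median 0.34), beside 5809 of all 11254 followed genes. Tbx3, a T-box factor of naive cells and a known Wnt target in ESCs, stood at 10.77 without and 12.01 with dox (1.24). The other pluripotent arrays ran from 10.46 to 12.06, so the dox- value lay in the lower part of their range and the dox+ value near its top. Below 2-fold were the germline and naive regulator Prdm14 (9.27 to 10.24), Tcl1 (10.36 to 11.31), the LIF receptor Lifr (10.05 to 10.86), Klf4 (11.33 to 11.98), Tfcp2l1 (12.02 to 12.62) and Esrrb (11.99 to 12.48), a gene that Tcf7l1 represses. Dppa3, a maternal factor that protects DNA methylation, was lower (10.12 to 8.86, -1.25), and so in value were Lin28a (11.56 to 10.97) and Gbx2 (10.21 to 9.87).

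Of 17 formative and primed genes, 7 were 2-fold or more lower, 0 higher and 16 lower in value (median -0.92). Over all followed genes 2.18% were 2-fold or more lower, 0.986% higher and 48.3% lower in value. Pim2, a kinase gene, went from 12.47 to 9.97 (-2.50). The post-implantation epiblast gene Fgf5 went from 9.39 to 7.88 (-1.51), and the de novo DNA methyltransferase gene Dnmt3b from 11.87 to 10.39 (-1.48). Fgf15 (9.74 to 8.45), Sox4 (9.22 to 8.06), Sall2 (8.37 to 7.27) and the feeder-type gene Cdh2 were the other members past 2-fold. Pou3f1 (9.50 to 8.53), Zic2 (11.96 to 11.04) and Sox11 (9.84 to 8.91) fell short of it, as did Otx2 (10.05 to 9.48). For Pim2, Fgf5, Dnmt3b, Fgf15 and Sall2 the dox- array was the outlying one: each stood above the range of the other 8 pluripotent arrays without dox and inside it with dox. Pim2, for example, ran from 9.40 to 10.70 there and Fgf5 from 7.17 to 8.37. Only 1 of the 17 genes is feeder-type.

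**Figure D4:**
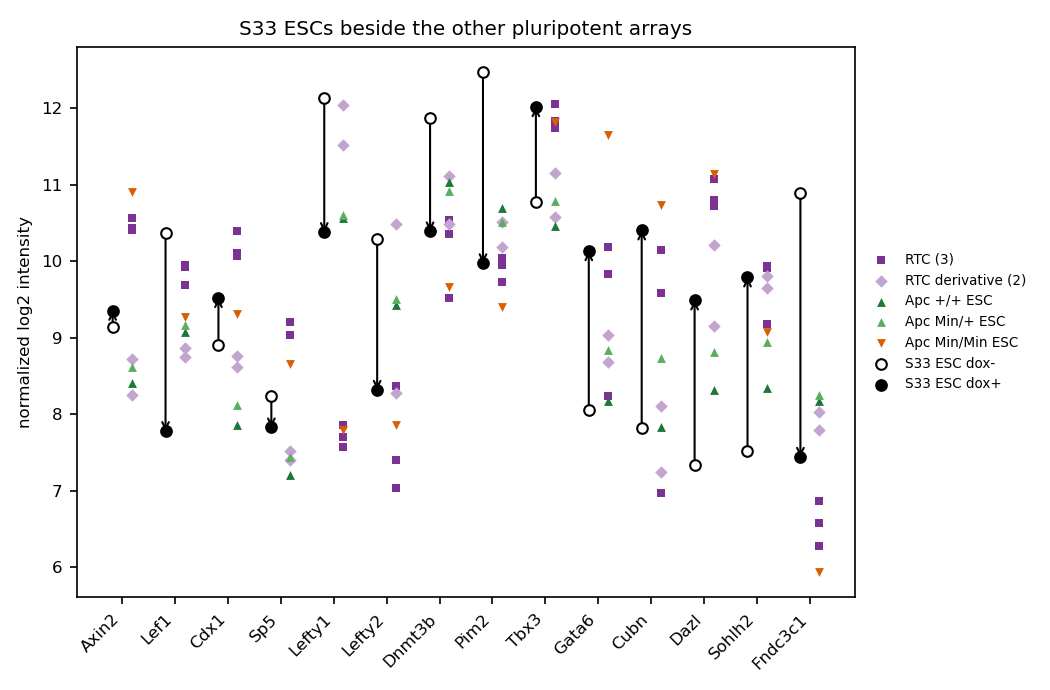
Normalized log2 intensity (y axis) of 14 genes in S33 ESCs without dox (open circles) and with dox (filled circles, arrows from dox- to dox+), beside each of the other 8 pluripotent arrays (coloured symbols). Pim2, Lef1 and Fndc3c1 start above the other arrays without dox, while Dazl and Sohlh2 start below them and end inside their range with dox.

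Several endoderm genes were higher with dox. Of 16 followed primitive and definitive endoderm genes, 4 were 2-fold or more higher, 2 lower and 13 higher in value (median 0.54, or 0.12 with no filter on low values). Of all followed genes, 0.986% were 2-fold or more higher and 2.18% lower. Cubn, an endocytic receptor of visceral endoderm, went from 7.82 to 10.40 (2.59). The endoderm transcription factor Gata6 went from 8.06 to 10.13 (2.07) and Gata4 from 8.49 to 9.51 (1.02), and the laminin chain Lama1 of the basement membrane from 9.33 to 10.79 (1.46). The spread among like arrays elsewhere in the series was wide for Cubn (pooled SD 1.11), Gata6 (0.67) and Gata4 (0.56) and narrower for Lama1 (0.36). Sox7 (7.79 to 8.69), Hhex (7.78 to 8.52) and Dab2 (10.01 to 10.70) were higher in value but under 2-fold. Sox17 (6.96 and 7.24), Foxa2 (7.92 and 7.88) and the differentiated markers Ttr (5.80 and 5.68) and Afp (6.80 and 6.63) were under the array median on both arrays. Lower with dox were Krt19 (10.14 to 8.30) and the activin antagonist Fst (9.61 to 8.54). The mean over 9 primitive endoderm markers was 7.90 without and 8.60 with dox, inside the range of 7.81 to 9.77 of the other pluripotent arrays.

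Germline genes formed another group on the high side. Among 11 followed, 9 were higher in value, 2 were 2-fold or more higher and 1 lower (median 0.70, or 0.35 with no filter). The shares of all followed genes 2-fold or more higher and lower were 0.986% and 2.18%. Dazl, an RNA-binding protein of germ cells, went from 7.33 to 9.49 (2.16). Across the other pluripotent arrays it lay at 8.32 to 11.14, so it was the dox- array that stood below them. Mov10l1, a helicase of the piRNA pathway, went from 8.25 to 9.71 (1.46, pooled SD 0.09), and here the dox+ value exceeded the other arrays, which reached 9.25. Mael (9.92 to 10.71), Piwil2 (8.44 to 9.28), Ddx4 (9.37 to 10.09) and Tex14 (9.46 to 10.16) followed under 2-fold, all with roles in piRNA silencing or germ cell development. Tdrd12, another piRNA factor, went the other way (10.64 to 9.51, -1.13). Outside the list, the oocyte and sperm factor Sohlh2 went from 7.52 to 9.79 (2.27) and the meiosis gene Stra8 from 6.66 to 8.26 (1.60). The other 13 germline genes on the array were under the array median with and without dox, Sycp1 (6.68 and 7.58) and Tdrd9 (7.03 and 6.83) among them.

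The promoters of Mov10l1 and Mael are shown because each holds the palindrome CACGTG, an E-box of the kind bound by dimers with Max, which is known for its part in silencing germline genes in ESCs. They are written as above, with CACGTG in capitals. Mov10l1 is at chr15:88982744-88983043, plus strand, with the motif starting at -246, and Mael at chr1:166238695-166238994, minus strand, with the motif at -223.
Mov10l1: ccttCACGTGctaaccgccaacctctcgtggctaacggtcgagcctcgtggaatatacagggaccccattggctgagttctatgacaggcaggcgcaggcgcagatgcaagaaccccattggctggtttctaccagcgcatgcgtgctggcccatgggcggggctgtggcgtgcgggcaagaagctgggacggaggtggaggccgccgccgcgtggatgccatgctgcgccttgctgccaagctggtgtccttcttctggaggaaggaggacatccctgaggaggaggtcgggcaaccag
Mael: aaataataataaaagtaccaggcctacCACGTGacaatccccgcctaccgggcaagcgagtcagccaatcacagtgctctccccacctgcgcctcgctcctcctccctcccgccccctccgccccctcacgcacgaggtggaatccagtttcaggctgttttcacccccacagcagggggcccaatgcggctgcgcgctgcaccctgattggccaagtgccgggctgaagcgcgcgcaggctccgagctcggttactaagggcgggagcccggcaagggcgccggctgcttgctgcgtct
Of the 10 followed germline genes with a promoter in the table, 5 held CACGTG, searched on both strands. Besides Mov10l1 and Mael these were Ddx4 (dox difference 0.72), Hormad1 (0.26) and Sycp3 (0.22). Hormad1 and Sycp3 hold 2 copies each. Neither motif contains the other. The share was 7.24% of all promoters, 10.8% of those of genes outside the feeder-type group, 5.95% of those of genes higher with dox and 4.71% of those of genes lower with dox. Dazl, with the largest difference of the list, has no CACGTG in this window.

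In the Nodal pathway both Lefty genes were lower and the other members stayed within 2-fold. The secreted Nodal antagonists Lefty1 and Lefty2 went from 12.13 to 10.38 (-1.75) and from 10.29 to 8.32 (-1.97). Nodal itself stood at 10.63 and 11.10, its coreceptor Tdgf1 at 13.44 and 13.43, Smad2 at 10.85 and 10.93 and the cofactor Foxh1 at 10.81 and 10.37. The whole list had 2 of 17 members lower and 0 higher, with a median of 0.00. For this and the next lists, 2.18% of all followed genes were lower and 0.986% higher. Lefty2 had a wide spread among like arrays (pooled SD 0.85). The pooled SD of Lefty1 was 0.20, but it comes mostly from arrays where Lefty1 was low. RTCs stood at 7.57 to 7.87 and MEFs at 7.36 to 7.65, and the RTC derivatives at 12.04 and 11.51. The value 0.20 is thus not a spread at the S33 levels of Lefty1. In the BMP list 2 of 17 were lower, the antagonists Grem1 (9.88 to 8.11, feeder-type) and Fst, and the target genes Id1 (9.65 and 9.58) and Id2 (11.58 and 12.06) did not reach 2-fold. Among 25 FGF and ERK feedback genes only Myc passed 2-fold, downward, and Dusp6 (11.25 and 11.39) and Spry4 (11.63 and 12.03) did not reach it. In the Notch list 1 of 20 was lower, the glycosyltransferase Lfng (9.54 to 8.47). In the retinoic acid list of 10, Stra8 was higher and Meis2 lower.

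Genes of the primitive streak, which Wnt signalling is known to induce in epiblast, were not higher as a group. Of 20 followed, 1 was 2-fold or more higher (Gata4) and 2 lower, Wnt8a and the growth factor Fgf8 (9.99 to 8.74, -1.25), with a median of -0.17. The T-box factor Eomes stood at 9.15 and 9.41, Mixl1 at 7.97 and 7.45 and Fgf17 at 9.81 and 8.89. Mesp1 (6.77 and 6.71) and Cdx4 (6.83 and 6.25) were under the array median on both. T is not analysed here. Among 20 trophoblast genes, Plet1 was higher (9.71 to 10.91) and the keratins Krt8 (12.49 to 10.88) and Krt18 (11.53 to 10.38) lower, with a median of -0.22. Gata3 (7.75 and 7.85), Elf5 (6.58 and 6.58) and Tpbpa (5.13 and 5.18), which define trophoblast, were under the array median on both arrays.

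Among 17 neuroectoderm and neuronal genes, 4 were 2-fold or more lower and 1 higher (median -0.25), beside 2.18% and 0.986% of all followed genes. Over the settings tried the median ran from -1.04, with genes kept only above the 75th percentile, to -0.08. Fabp7, feeder-type here, went from 9.13 to 7.04, the progenitor filament Nes from 10.05 to 8.33 (MEF gap 1.61), and the neuronal filaments Ina and Nefl from 12.12 to 10.76 and from 10.52 to 9.39. Neurod1, a neuronal and endocrine factor, went the other way, from 7.72 to 9.71 (1.99). It ran from 6.16 to 10.22 on the other pluripotent arrays, and neither S33 value left that range. Sox1 stood at 9.19 and 8.91 and Pax6 at 8.11 and 7.63.

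Among junction genes, E-cadherin and several catenins stood near their dox- level. E-cadherin (Cdh1) stood at 12.71 and 12.63, alpha-catenin (Ctnna1) at 11.91 and 12.03, p120 catenin (Ctnnd1) at 11.63 and 11.58, and plakoglobin (Jup) at 12.34 and 12.28. Beside 0.986% and 2.18% of all followed genes, 0 of the 36 followed members of the list were 2-fold or more higher and 8 lower. These were Cdh2 and Cdh11 (10.54 to 8.29), both feeder-type, the keratins Krt8, Krt18 and Krt19 (but not Krt7, at 8.69 and 8.71), the GTPase Rab25 (10.20 to 8.55), the splicing regulator Esrp1 (11.14 to 9.92) and the protease Prss8 (10.79 to 9.72). Of 16 mesenchymal transition factors, 5 were lower and 0 higher, and all 5 are feeder-type: Prrx1 (10.21 to 8.42), Tgfb3, Twist2, Zeb2 and Tgfb2. Lower fibroblast markers accompany that list on the dox+ array, and their part in it was not tested. The 8 members that are not feeder-type had a median of -0.21 with 0 past 2-fold.

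Genes of proliferation and core metabolism stayed close to their dox- level. Of all followed genes, 48.3% were below their dox- level in value. Of 39 cell cycle genes 1 passed 2-fold, Ccnd2 (11.03 to 8.88), which is feeder-type, and the median was 0.08. Ccnd1, a Wnt target in some tissues, stood at 12.35 and 11.53, Mki67 at 12.21 and 12.09 and Pcna at 13.14 and 13.21. Of 26 Cdk inhibitors and p53 targets 0 passed 2-fold in either direction, although 22 were higher in value (median 0.22), with Eda2r (0.86) the highest, Mdm2 at 11.37 and 11.89 and Cdkn2b the lowest (-0.57). Oxidative phosphorylation had 33 of 36 genes higher in value by small amounts (median 0.11, highest Ndufb3 at 0.38, lowest Ndufa2 at -0.06), and glycolysis and the hypoxia response had 23 of 28 lower in value (median -0.25), with Ddit4 (11.57 to 10.24) and the feeder-type gene Adm (8.61 to 7.46) past 2-fold. The sterol and fatty acid list had a median of 0.00 over 26 genes with 0 past 2-fold. In S33 MEFs, by contrast in value, 20 of the 39 cell cycle genes and 16 of the 26 sterol genes were 2-fold or more lower with dox, a difference between cell types that was not tested.

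The remaining lists had few members past 2-fold. Over all followed genes, 0.986% were 2-fold or more higher, 2.18% lower, and 48.3% lower in value. Imprinted genes had 15 of 18 lower in value (median -0.50), with the neuronal Nnat (11.07 to 9.62) and the growth factor Igf2 (11.35 to 10.17, feeder-type) past 2-fold. Among 16 DNA methylation genes only Dnmt3b passed it, while Dnmt3l (11.87 and 12.02), Dnmt1 (12.05 and 11.97) and Tet2 (11.27 and 11.76) did not. Stc2 (9.68 to 8.58) was the only one of 26 amino acid stress genes past 2-fold, and 0 of 19 genes of the unfolded protein and heat shock response passed it (Dnajb9 0.50, Hsph1 -0.24). Of 14 interferon response genes, Xaf1 was higher and Oasl2 lower (9.80 to 8.65), both feeder-type. Hoxc8 (9.13 to 7.57, feeder-type) was the only one of 9 Hox and caudal genes past 2-fold. Of 16 intestinal stem cell genes, Cd44 and Prom1 (8.97 to 7.66) were lower, and of 5 differentiated gut genes 0 passed (Anpep 0.81, Cck -0.31). Zfp750 (0.17) was the 1 followed two-cell-stage gene. Among immune genes the macrophage lysozyme Lyz2 was lower (9.22 to 7.35) and the lysosomal Laptm5 higher (10.72 to 11.93), with pooled SDs of 1.62 and 1.25, and the pan-leukocyte marker Ptprc was under the array median on both arrays (6.38 and 6.18). Among 5 endothelial and blood genes Eng was higher (9.75 to 10.83) and Flt1 lower (9.10 to 7.82).

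**Figure D5:**
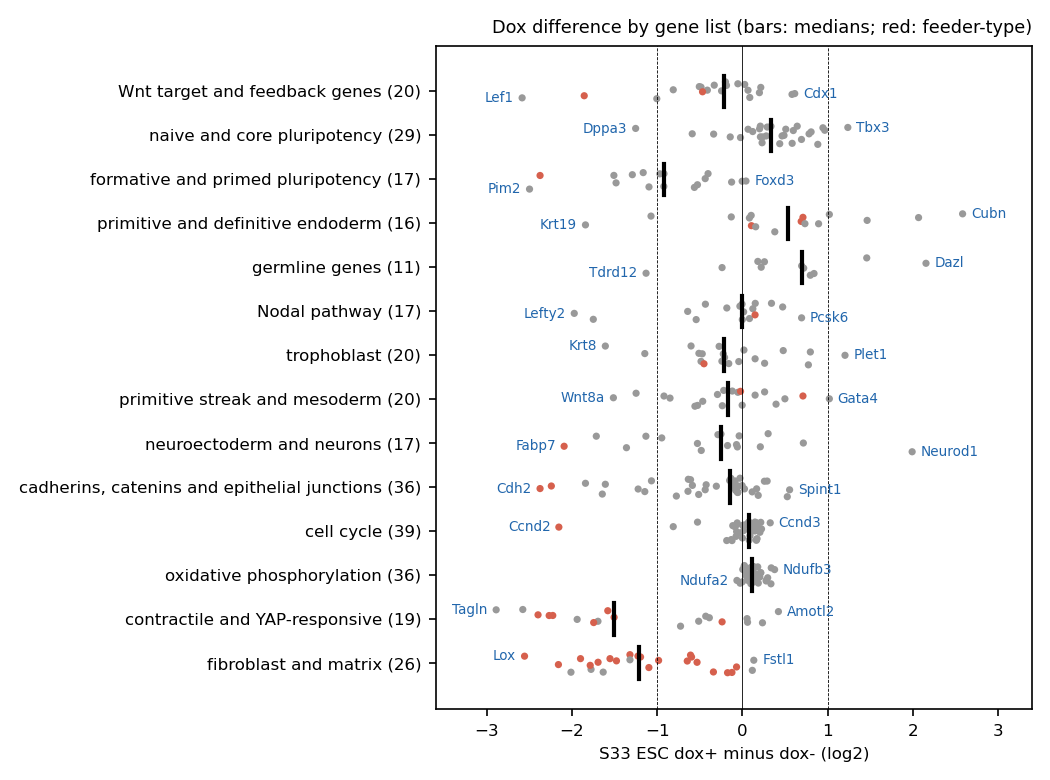
Dox difference in S33 ESCs (x axis, log2) of every followed member of 14 gene lists (rows, number of members in brackets), with list medians as black bars, feeder-type members in red and dashed lines at 2-fold. The fibroblast (-1.21), contractile (-1.51) and formative (-0.92) lists have the lowest medians, and the germline (0.70), endoderm (0.54) and naive pluripotency (0.34) lists the highest.

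Outside these lists, the largest positive difference among genes that are not feeder-type was that of Igsf21, an immunoglobulin-domain protein of synapses, at 8.77 without and 11.66 with dox (2.89). The other pluripotent arrays reached 10.14, so the dox+ array stood above all of them. Slc44a3, a choline transporter-like gene (7.60 to 9.88), the phosphodiesterase Pde8a (8.01 to 10.19), the citrate transporter Slc13a5 (7.12 to 8.92) and the transferrin gene Trf (8.16 to 9.85) also stood among the 15 largest of named genes. So did the proteoglycan Srgn (10.09 without dox, difference 1.92), with a pooled SD of 1.25, Ankrd44 (7.08 to 8.98), the arginine methyltransferase Prmt8 (7.01 to 8.90), Fam81a (9.11 to 10.85) and the activity-induced neuronal gene Arc (8.99 to 10.70). Of the 110 genes, 55 had a dox- value below the range of the other 8 pluripotent arrays and 39 a dox+ value above it. Of all genes outside the feeder-type group, 11.7% and 13% lay so. The 110 were chosen for their difference, so nothing is read from these shares. Slc44a3 (range 8.19 to 9.41) left that range on both sides.

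The largest negative difference was that of Fndc3c1, an X-linked fibronectin-domain gene, at 10.90 without and 7.44 with dox (-3.45). It ran from 5.94 to 8.26 on the other pluripotent arrays, so the dox- array stood apart. The same held for the semaphorin Sema6a (11.07 to 8.27, range 8.37 to 10.22), Shisa6 (9.10 to 6.36, range 5.86 to 6.95), the guanylate-binding Gbp2b (8.64 to 6.39, range 5.70 to 6.53) and the carbonic anhydrase Car2 (11.69 to 9.53, range 7.08 to 9.79), of which Sema6a also ended below the range. Chst15, a sulfotransferase, went from 9.67 to 7.75. Igfbp7 (11.84 to 9.82), Prss23 (9.67 to 7.73) and Zfp608 (9.27 to 7.24) have MEF gaps of 1.95, 1.97 and 1.97, just short of the feeder-type split. Of the 121 lower genes, 70 had a dox- value above the range of the other pluripotent arrays and 30 a dox+ value below it, beside 14.8% and 7.32% of all genes outside the feeder-type group. The 121 were likewise chosen for their difference, so nothing is read from these shares.

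How large these differences are can be set against pairs of arrays in the same series. On the filter used for each pair, 356 genes (3.16%) were 2-fold or more apart between the S33 ESC arrays, 12 (0.107%) between Apc +/+ and Apc Min/+ ESCs, and 22 (0.197%) between RTC 2 and RTC 3. Other pairs of one kind were as far apart as the S33 arrays or further: 391 genes (3.46%) between RTC 1 and RTC 2, 387 (3.39%) between the untreated MEF arrays and 730 (6.39%) between the RTC derivatives. The S33 ESC count was thus above that of the closest pairs and inside the span of pairs of one labelled kind. These pairs are of other cells and do not replace replicates of S33 ESCs.

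The genes that differed in S33 ESCs were also looked up in 2 other contrasts of pluripotent arrays, Apc Min/Min over Apc +/+ ESCs and RTCs over their derivatives, which use none of the S33 arrays. The RTC derivative arrays also define the feeder-type split, so that contrast shares arrays with the choice of genes. Of the 482 feeder-type genes left out, 5.39% were higher and 0.207% lower in RTCs over their derivatives. Of the 110 higher genes, 25 (22.7%) were 2-fold or more higher in Apc Min/Min than in Apc +/+ ESCs and 11 (10%) lower, where 2.97% and 5.3% of all genes outside the feeder-type group were. The 25 are 7.81% of the 320 followed genes outside the feeder-type group that were higher in that contrast. In RTCs over their derivatives, 17 of the 110 (15.5%) were higher and 4 lower, against 1.08% and 1.58% of all. The 17 are 14.7% of the 116 followed genes outside the feeder-type group that were higher there. Among the genes higher in all 3 contrasts were Cubn, Dazl, Lama1, Tbx3, the choline-pathway enzyme Dmgdh and the peptidoglycan sensor Pglyrp1. Tbx3 differed by 1.24 in S33 ESCs, 1.35 in Min/Min and 1.01 in RTCs. These comparisons of shares were not tested, and Min/Min and Apc +/+ ESCs are 1 array each.

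On the low side, 32 of the 121 genes (26.4%) were lower in Min/Min ESCs and 13 (10.7%) higher, against 5.3% and 2.97% of all. The 32 are 5.6% of the 571 followed genes outside the feeder-type group that were lower there. In RTCs over derivatives 26 (21.5%) were lower and 5 higher, against 1.58% and 1.08%. The 26 are 15.3% of the 170 followed genes outside the feeder-type group that were lower there. Among the genes lower in all 3 were Fndc3c1, Lefty1, Lefty2, Rab25, Ina, Dppa3, Esrp1 and the fatty acid transporter Slc27a2. Lefty1 differed by -1.75 in S33 ESCs, -2.76 in Min/Min and -4.06 in RTCs. Lef1 did not follow this pattern (-2.59, 0.19 and 1.05), nor did Neurod1 (1.99, -2.65 and -3.11), Prmt8 (1.89, -1.70 and -1.93) or Krt8 (-1.61, 1.11 and 1.30). In S33 MEFs given dox, 2 of the 110 genes (1.82%) were higher, near the 1.32% of all genes, and 6 (5.45%) lower, against 2.65%. Of the 121 genes, 6 (4.96%) were lower there, against 2.65% of all, and 8 (6.61%) higher, against 1.32%. The counts are small and come from 1 MEF array per arm, and the shares were not tested.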

How the data were processed

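Total RNA of 18 mouse samples was hybridised to Affymetrix arrays, 1 per sample, after fragmentation and biotin labelling, per the labels' protocols. The deposited values are linear intensities, 1 per probe set and array (28856 probe sets, 3 without values). The background correction, summarisation and scaling used by the authors are not given in the sources used here, and the planned design had assumed log2 values. Intensities were taken to log2 and quantile normalized over the 18 arrays in 1 step (Python 3.11.15, numpy 2.4.6, pandas 2.3.3). Platform annotation gave 1 symbol to 21789 probe sets, several to 1621 and none to 5443. Of the 21789, 21698 matched RefSeq (GRCm38.p6) by Entrez identifier, with 0 symbols changed. A gene was read from its probe set of highest mean, and a gene had to exceed the array median (percentile 50) on 1 of the S33 ESC arrays. Genes 2-fold apart were counted, without a test, because each arm has 1 array. The normalization and the 2-fold threshold were checked on a simulated pair made from the dox- array. The filter, the choice of probe set, the feeder-type split and the lists were not part of that check.

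The genes to name were Ctnnb1, Apc, Axin2, Lgr5, Cdx1, Cdx2, Sp5, T, Lef1, Pou5f1, Nanog and Sox2, the 15 largest differences each way among genes outside the feeder-type group, the 6 largest each way within it, and per list up to 8 members past 2-fold, or the highest and lowest where none passed; predicted genes and small RNAs were counted only. Other genes named, and those given as list members under 2-fold, were chosen after their values were seen. The 36 lists held 916 names, and 855 of them matched a probe set with 1 symbol. The comparison, the feeder-type split and the lists were chosen with earlier results of these data known. Alternatives were other scalings, filters, probe set rules, a pseudocount of 50, other thresholds, and the feeder-type split without each of its arrays.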

Additional observations from a re-analysis of the deposited data

Results flagged for a closer look

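In 7 named genes the dox difference was 2-fold or more in opposite directions in S33 ESCs and S33 MEFs, with 1 array per arm in each, so the difference between the cell types was not tested. Lef1 differed by -2.59 in ESCs (10.37 to 7.78) and by 2.47 in MEFs (7.89 to 10.36). The carbonic anhydrase Car2 differed by -2.16 in ESCs and by 3.22 in MEFs, where it went from 6.76 to 9.99. Gata6 differed by 2.07 and -1.03, Ankrd1 by -1.94 and 1.23, and Xaf1 by 1.56 and -1.30. Fabp7 differed by -2.09 and 1.31 and Tgfb2 by -1.33 and 1.22, and both are feeder-type genes, so their ESC values lie beside the lower fibroblast markers of the dox+ array.

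Probe sets that carry no single gene symbol, 7064 in all and 2593 above the filter, took no part in the comparisons. Among them 39 were 2-fold or more higher with dox and 24 lower, with differences of up to 2.90 and down to -3.65.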

How the results depend on the processing

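No paired analysis was possible because each arm has 1 array. Under the 3 other scalings (as deposited, centred on the median, quantile over the S33 ESC arrays alone), all 99 named genes past 2-fold kept their sign, and 95, 94 and 96 stayed past it; with the pseudocount of 50, 92 did. The median over all genes was 0.01, and 0.03 and 0.04 as deposited and centred. With no filter there were 891 feeder-type genes in place of 482, and 131 of the 891 were 2-fold or more lower with dox. With the filter at percentile 75, 48 genes were higher and 87 lower in all, 48 and 53 outside the feeder-type group, and 34 of 90 feeder-type genes were lower; fewer genes are followed under it. At a threshold of 1.5-fold, 521 genes were higher and 592 lower, 509 and 365 outside the feeder-type group and 227 lower within it. With the feeder-type split at 2-fold it held 1703 genes and 75 others were lower; at 8-fold it held 103 genes, 49 of them lower, and 196 others were lower. Leaving out each array of the split in turn gave 475 to 540 feeder-type genes, 116 to 137 of them lower, 108 to 129 other genes lower and 108 to 110 higher. The list medians of Wnt signal transduction, the Nodal pathway, immune cells and sterol synthesis, each near 0 or of few genes, changed sign in at least 1 setting (immune cells 0.36, and -0.12 with no filter).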
